A study of Homo sapiens with 6 samples.

Results

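Purine breakdown and adenosine enzymes were examined in MDA-MB-231 cells, an established human line of triple-negative breast cancer. The set holds 10 genes of the 61533 rows of the count table: XDH, PNP, ADA, NT5E, ENTPD1, GDA, AMPD2, AMPD3, ADK and NT5C2. XDH was chosen by the comparison reported here, in which it stood among the largest increases, so its values are a description and carry no test. The other 9 were selected by function to stand beside it, with results of these libraries already known. Of the 10 genes, 9 passed the filter on low counts and GDA did not. The cells carried either shKDM2B, a short hairpin RNA that lowers KDM2B (3 libraries), or an empty vector (3 libraries, genotype labelled WT). KDM2B is a histone demethylase with a CXXC domain that binds DNA at unmethylated CpG dinucleotides. All 6 libraries came from total RNA of subconfluent cultures grown in the same medium, after depletion of ribosomal RNA. The hairpin's sequence, and whether the cells were a pool or a clone, are not stated in the labels.

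Purine nucleotides are broken down by removal of phosphate, amino and sugar groups. Outside the cell, the surface enzyme ENTPD1 (CD39) strips ATP and ADP to AMP, and NT5E (CD73) turns AMP into adenosine, which signals through adenosine receptors. Inside the cell, nucleotidases such as NT5C2 and the AMP deaminases AMPD2 and AMPD3 act on nucleotides, ADA deaminates adenosine to inosine, and PNP releases the base. GDA turns guanine into xanthine, and XDH oxidises hypoxanthine to xanthine and xanthine to urate. ADK works against this flow by returning adenosine to AMP. XDH is best known from liver, intestine and the lactating mammary gland, where it also takes part in milk fat secretion.

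KDM2B binds DNA through CpG, so the sequence before the start of 4 of the genes is shown, those measured genes that have a single start in RefSeq. Each line gives the 250 bases before the start, 5′ to 3′ on the strand of the gene, with every CG in capitals (RefSeq, build GRCh38.p14). The XDH window lies at chr2:31414743-31414992 on the minus strand, ADA at chr20:44651700-44651949 on the minus strand, NT5E at chr6:85449833-85450082 on the plus strand and PNP at chr14:20469156-20469405 on the plus strand.
XDH: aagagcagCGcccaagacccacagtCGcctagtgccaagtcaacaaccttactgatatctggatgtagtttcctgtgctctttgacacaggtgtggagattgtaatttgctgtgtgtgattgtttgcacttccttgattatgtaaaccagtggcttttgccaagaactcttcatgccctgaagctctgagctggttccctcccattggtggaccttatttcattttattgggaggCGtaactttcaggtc
ADA: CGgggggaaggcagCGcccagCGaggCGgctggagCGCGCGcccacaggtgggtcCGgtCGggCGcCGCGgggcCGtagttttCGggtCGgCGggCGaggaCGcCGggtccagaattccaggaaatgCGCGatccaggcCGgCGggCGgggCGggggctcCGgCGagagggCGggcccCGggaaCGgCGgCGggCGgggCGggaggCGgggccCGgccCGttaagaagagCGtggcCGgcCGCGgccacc
NT5E: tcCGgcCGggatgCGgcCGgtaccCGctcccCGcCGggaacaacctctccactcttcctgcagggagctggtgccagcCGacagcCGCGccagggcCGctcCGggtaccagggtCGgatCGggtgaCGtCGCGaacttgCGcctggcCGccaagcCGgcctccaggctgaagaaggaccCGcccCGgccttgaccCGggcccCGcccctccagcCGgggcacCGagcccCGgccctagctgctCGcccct
PNP: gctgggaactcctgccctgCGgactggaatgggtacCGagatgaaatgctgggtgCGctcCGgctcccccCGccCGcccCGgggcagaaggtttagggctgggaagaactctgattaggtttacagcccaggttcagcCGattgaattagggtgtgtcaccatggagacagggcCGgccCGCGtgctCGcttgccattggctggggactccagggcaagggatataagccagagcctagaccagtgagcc
The XDH window holds 3 CG, 2 near its far end and 1 close to the start, while ADA holds 41, NT5E 28 and PNP 12. CpG content of all the genes is taken up again after their expression.

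The knockdown was visible in the counts. KDM2B had 153, 166 and 224 counts in shKDM2B libraries, against 589, 714 and 902 counts in empty vector libraries, a log2 fold change of -2.12. MYC and ATF4, the transcription factors named by the series, had log2 fold changes of -0.88 and -1.77. Library totals ran from 10437732 to 15737951 counts in shKDM2B and from 10190149 to 13635565 in empty vector. A count of 0 allows up to 3 counts in a library, which is 0.191 to 0.294 CPM over the unscaled library total and covers counting error only. All other CPM values are counts scaled to library size with TMM factors. In these 6 libraries VIM, KRT18 and other markers of the line were present, and the hormone receptors ESR1 and PGR had at most 4 counts in any library. ERBB2, also listed as low in triple-negative cells, was counted in every library, at 62.5 CPM in shKDM2B and 63.7 CPM in empty vector. VIM averaged 405.9 CPM in shKDM2B and 1299 CPM in empty vector. By the test described below, 3 of the 6 line markers were higher in shKDM2B and 2 lower, VIM among them. Across all genes tested, 60.9% were called, 30.5% higher and 30.4% lower, which is also the background for the RNA quality transcripts below. Mitochondrial transcripts took 0.196% to 0.476% of counts in shKDM2B and 0.0767% to 0.151% in empty vector. The summed level of 5 transcripts that follow RNA quality (MT-ND1, MT-CO1, MT-CYB, MALAT1 and NEAT1) was 4948 to 5423 CPM in shKDM2B and 1703 to 2091 CPM in empty vector, and 5 of 5 were higher. Their part in the results below was not tested. Whether the replicates were separate cultures is unstated, so the p-values cover only the spread among libraries, possibly a technical one.

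The enzymes did not move as a block. Of the 8 genes tested beside XDH, 5 were higher in shKDM2B cells (NT5E, AMPD3, ADA, NT5C2 and ADK), 2 were lower (ENTPD1 and PNP) and AMPD2 was not called. A call is an adjusted p under 0.05 in edgeR's quasi-likelihood test over all 14071 genes tested. Across all of those genes 60.9% were called, 30.5% higher and 30.4% lower, so calls were common throughout the comparison. The CPM values of the groups did not overlap for any of the 8 genes, and this was true of 65.5% of all genes tested. The median log2 fold change of the 8 genes was 0.32, beside -0.01 over all genes tested. By the fit, 3 of the 8 differed at least 2-fold: NT5E and AMPD3 upward and ENTPD1 downward.

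**Figure D1:**
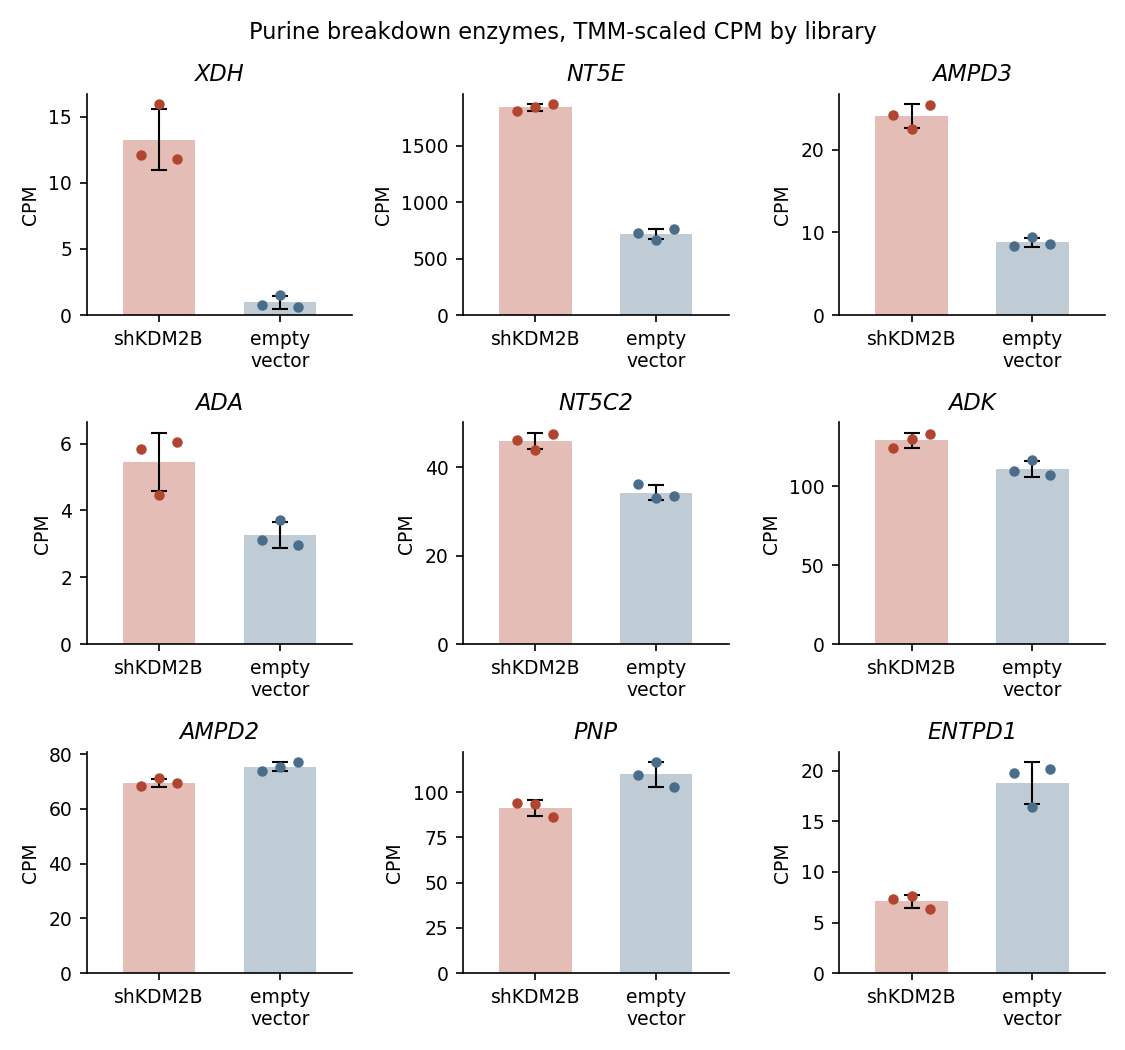
TMM-scaled CPM of the 9 measured enzymes in each library, one panel per gene, with shKDM2B left and empty vector right. Bars are means, error bars SD (n = 3 each) and points libraries, and each vertical axis starts at 0. XDH, NT5E and AMPD3 stand higher in all shKDM2B libraries, ENTPD1 lower, and AMPD2 nearly level.

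XDH encodes xanthine dehydrogenase, also called xanthine oxidoreductase, the molybdenum enzyme of the last steps to urate (ENSG00000158125.10, chromosome 2 from 31334321 to 31414715, minus strand, GRCh38). It had 124, 182 and 181 counts in shKDM2B libraries, against 8, 16 and 8 counts in empty vector libraries. All empty vector values lay above the limit of 3 counts, but they are few, and every shKDM2B library was far above every empty vector library. On the scaled level XDH averaged 13.3 ± 2.32 CPM in shKDM2B and 0.960 ± 0.498 CPM in empty vector (SD, n = 3 each), a ratio of 13.8. The fitted log2 fold change was 3.82 (SE 0.25). Among increases with a mean level of at least 5 CPM it ranked 8, just after the placental alkaline phosphatase ALPP (3.88) and just before ARID3A (3.72). Because the empty vector counts are small, the size depends on single libraries: it was 4.28 without empty vector replicate 2 and 3.50 without empty vector replicate 3.

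The 5 protein-coding genes whose pattern over the 6 libraries lay closest to that of XDH were COL1A1, CARD14, IGFN1, ANGPTL4 and ALPP. Likeness was the root mean square difference of log2 CPM values centred on their mean, and it ran from 0.276 for COL1A1 to 0.386 for ALPP. COL1A1, a chain of type I collagen, averaged 66.4 CPM in shKDM2B and 5.78 CPM in empty vector. ANGPTL4, a secreted inhibitor of lipoprotein lipase, averaged 187.5 CPM in shKDM2B and 18.4 CPM in empty vector. With 2 groups of 3 libraries, such likeness mostly reflects a similar difference between the groups.

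At the cell surface the 2 enzymes that act in sequence moved in opposite directions. NT5E, the ecto-5′-nucleotidase that makes adenosine, was the most abundant gene of the set (ENSG00000135318.12, chromosome 6 from 85449584 to 85495791, plus strand). It had 18613, 21116 and 28680 counts in shKDM2B libraries, against 7528, 7021 and 10519 counts in empty vector libraries. The lowest shKDM2B library was thus well above the highest empty vector library, also after scaling. NT5E averaged 1842 ± 29.6 CPM in shKDM2B and 720.8 ± 47.5 CPM in empty vector (SD, n = 3 each). The edgeR log2 fold change was 1.35 (SE 0.05, adjusted p 1.88e-11), higher in 3 of 3 shKDM2B libraries.

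ENTPD1, which acts a step earlier on ATP and ADP, was lower (ENSG00000138185.20, chromosome 10 from 95711779 to 95869695, plus strand). Its libraries held 75, 87 and 98 counts in shKDM2B, against 203, 172 and 279 counts in empty vector. No shKDM2B library reached the lowest empty vector library. The level was 7.10 ± 0.641 CPM in shKDM2B and 18.8 ± 2.09 CPM in empty vector (SD, n = 3 each), with an edgeR log2 fold change of -1.42 (SE 0.12, adjusted p 2.08e-07). ENTPD1 shares exon sequence with the antisense transcript ENTPD1-AS1, which was not called (log2 fold change -0.22, adjusted p 0.243). The sources do not state whether counting used the strand, so reads of overlapping genes cannot be told apart.

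A related ATP hydrolase moved the other way. ENTPD3 had 156, 182 and 253 counts in shKDM2B libraries, against 42, 34 and 41 counts in empty vector libraries (edgeR log2 fold change 2.23, SE 0.14, adjusted p 7.16e-09). Per kilobase of exon, ENTPD1 made up 18.8% ± 1.84 of the ENTPD1 and ENTPD3 level in shKDM2B and 73.9% ± 3.48 in empty vector (SD, n = 3 each). ENTPD1 was thus the larger of the pair in the 3 empty vector libraries and the smaller in the 3 shKDM2B libraries. Of the 12 genes listed as extracellular nucleotide hydrolases, 5 were tested, NT5E and ENTPD1 among them, and 4 were higher and 1 lower. Their median log2 fold change was 1.35. For comparison, 30.5% of all genes tested were higher and 30.4% lower. DPP4 (CD26), a peptidase that anchors ADA at the cell surface, had a log2 fold change of 1.99 (adjusted p 5.44e-07). ENPP1, which splits ATP to AMP and pyrophosphate, rose by 0.42 on the log2 scale (adjusted p 3.87e-05). The other 7 had at most 10 counts in any library.

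NT5E, ENTPD1 and DPP4 are also used as markers of stromal, endothelial or immune cells, so markers of such cells were summed. Of the 5 leukocyte markers 0 passed the low-count filter, their sum was 0.788 to 1.04 CPM in shKDM2B and 0.0973 to 0.381 CPM in empty vector, and CD3E and LYZ were at 0 in every library. Fibroblast markers summed to 0.0972 to 0.613 CPM in shKDM2B and 0.0973 to 0.362 CPM in empty vector, also with 0 of 5 past the filter. COL1A1, a collagen of fibroblasts that is not in that sum and is named here after its values were seen, averaged 66.4 CPM in shKDM2B and 5.78 CPM in empty vector, and its part in these results was not tested. The 4 endothelial markers summed to 26.3 to 27.6 CPM in shKDM2B and 8.40 to 10.7 CPM in empty vector. Of these only KDR passed the filter (log2 fold change 1.56), and without KDR the sum was 0.847 to 1.56 CPM in shKDM2B and 0.584 to 0.797 CPM in empty vector. In such bulk samples, fewer cells of a type and less RNA per cell cannot be told apart.

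Among the nucleotide deaminases, AMPD3 was higher and AMPD2 was not called. AMPD3, known as the erythrocyte isoform (ENSG00000133805.16, chromosome 11 from 10308313 to 10507579, plus strand), had 249, 257 and 390 counts in shKDM2B libraries, against 86, 99 and 119 counts in empty vector libraries. Every shKDM2B library stood above every empty vector library. AMPD3 averaged 24.0 ± 1.45 CPM in shKDM2B and 8.80 ± 0.557 CPM in empty vector (SD, n = 3 each), with an edgeR log2 fold change of 1.45 (SE 0.10, adjusted p 2.19e-08).

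AMPD2, the widely expressed isoform, had 702, 813 and 1066 counts in shKDM2B libraries, against 760, 791 and 1065 counts in empty vector libraries (ENSG00000116337.20, chromosome 1 from 109616104 to 109632051, plus strand). Scaled to library size it was 69.6 ± 1.48 CPM in shKDM2B and 75.5 ± 1.61 CPM in empty vector (SD, n = 3 each). The groups did not overlap on this scale, but the difference was small and did not pass edgeR's test (log2 fold change -0.12, SE 0.05, adjusted p 0.0668). It passed with upper-quartile scaling (adjusted p 0.0496) and without empty vector replicate 2 (adjusted p 0.0160). AMPD2 shares exon sequence with GNAI3 on the same strand, which had a log2 fold change of 0.20. Per kilobase of exon, AMPD3 made up 25.8% ± 1.46 of the AMPD2 and AMPD3 level in shKDM2B and 10.5% ± 0.591 in empty vector (SD, n = 3 each), so AMPD2 was the larger of the pair in all 6 libraries.

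**Figure D2:**
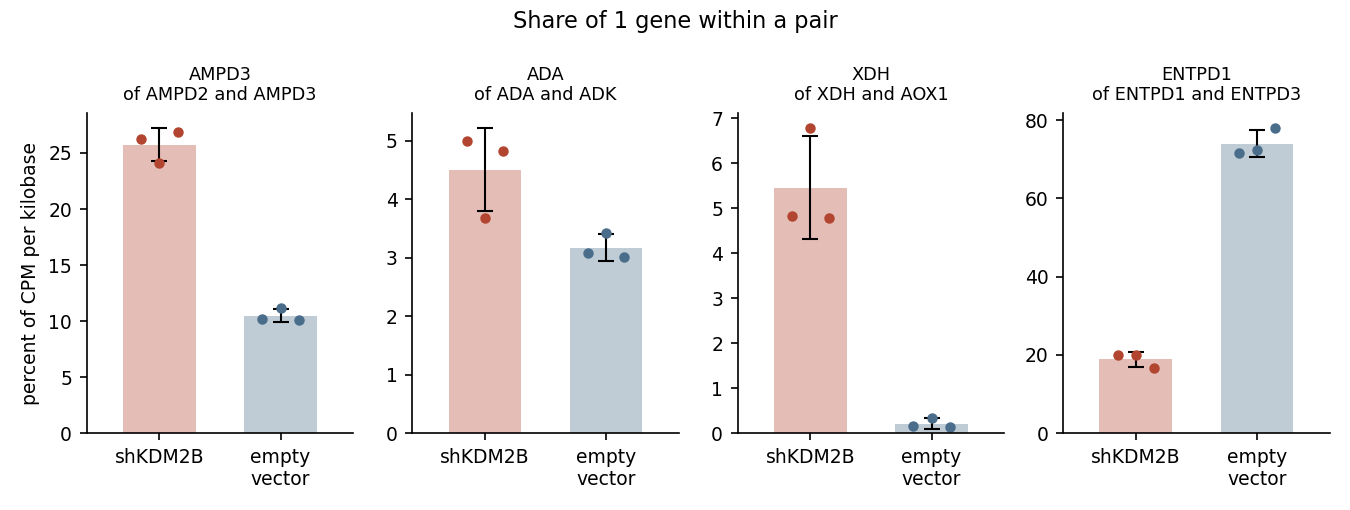
Share of the first gene within a pair of related genes, in percent of the summed CPM per kilobase of exon, with shKDM2B left and empty vector right in each panel. Bars are means, error bars SD (n = 3 each) and points libraries; the 4 vertical axes differ. The AMPD3 share is 25.8% in shKDM2B and 10.5% in empty vector, and the ENTPD1 share is 18.8% in shKDM2B and 73.9% in empty vector.

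The cytosolic nucleotidase NT5C2, which prefers IMP and GMP, was modestly higher (ENSG00000076685.19, chromosome 10 from 103088017 to 103193306, minus strand). It had 476, 502 and 730 counts in shKDM2B libraries, against 372, 347 and 464 counts in empty vector libraries. The level was 45.9 ± 1.81 CPM in shKDM2B and 34.3 ± 1.67 CPM in empty vector (SD, n = 3 each), again without overlap. The edgeR log2 fold change was 0.42 (SE 0.07, adjusted p 0.000113). CNNM2, a magnesium transport gene that shares exon sequence with NT5C2 on the opposite strand, had a log2 fold change of 0.54 (adjusted p 1.79e-05), and reads of the pair cannot be told apart.

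Other nucleotidases mostly went the other way. Of the 8 genes listed as intracellular nucleotidases, 6 were tested, of which 2 were higher, NT5C2 among them, and 4 lower. Their median log2 fold change was -0.35. The number lower was 3 without shKDM2B replicate 2. Against a 1.2-fold change 3 were lower and 1 higher, and with no low-count filter 3 were higher. Among all genes tested, 30.5% were higher and 30.4% lower. NT5C and NT5C3A, which act on deoxynucleotides and pyrimidine nucleotides, had log2 fold changes of -0.54 (adjusted p 0.00226) and -0.45 (adjusted p 5.02e-05). SAMHD1, which removes triphosphate from deoxynucleotides, rose by 0.31 (adjusted p 0.000132), but did not pass a test against a 1.2-fold change (adjusted p 0.146).

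ADA, whose inherited loss causes severe combined immunodeficiency, was low and somewhat higher with the hairpin (ENSG00000196839.13, chromosome 20 from 44619522 to 44652233, minus strand). It had 60, 51 and 93 counts in shKDM2B libraries, against 32, 39 and 41 counts in empty vector libraries. The level was 5.45 ± 0.861 CPM in shKDM2B and 3.27 ± 0.396 CPM in empty vector (SD, n = 3 each), with a gap of less than 1 CPM between the lowest shKDM2B library and the highest empty vector library. The edgeR log2 fold change was 0.75 (SE 0.18, adjusted p 0.00267), with the widest error of the 8 genes. PKIG, which overlaps exons of ADA on the opposite strand, was lower (log2 fold change -0.39, adjusted p 0.0135).

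ADK, which competes for the same adenosine, was nearly level by comparison (ENSG00000156110.15, chromosome 10 from 74151185 to 74709303, plus strand). It had 1275, 1487 and 2043 counts in shKDM2B libraries, against 1126, 1225 and 1477 counts in empty vector libraries. The level was 129.1 ± 4.64 CPM in shKDM2B and 111.0 ± 5.04 CPM in empty vector (SD, n = 3 each), and the edgeR log2 fold change was 0.22 (SE 0.05, adjusted p 0.00311). This passed the test of any difference but not a test against a 1.2-fold change (adjusted p 0.741). Per kilobase of exon, ADA made up 4.51% ± 0.712 of the ADA and ADK level in shKDM2B and 3.17% ± 0.229 in empty vector (SD, n = 3 each), so the ADK level exceeded that of ADA in all 6 libraries.

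PNP, which splits inosine and guanosine into base and ribose phosphate, was slightly lower (ENSG00000198805.12, chromosome 14 from 20468954 to 20477094, plus strand). It had 969, 1069 and 1323 counts in shKDM2B libraries, against 1129, 1225 and 1424 counts in empty vector libraries. The level was 91.3 ± 4.49 CPM in shKDM2B and 109.9 ± 6.78 CPM in empty vector (SD, n = 3 each). The edgeR log2 fold change was -0.27 (SE 0.06, adjusted p 0.00152), and against a 1.2-fold change the adjusted p was 0.399. PNP, whose product hypoxanthine is a substrate of XDH, thus fell by a small amount.

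GDA, the guanine deaminase, was not detectable at this depth (ENSG00000119125.17, chromosome 9 from 72114595 to 72257193, plus strand). It had 0, 0 and 2 counts in shKDM2B libraries, against 0 counts in all 3 empty vector libraries, and all of these lie under the limit of 3 counts. Of the 9 genes listed as deaminases, phosphorylases and oxidases, 6 were tested besides XDH, of which 2 were higher (AMPD3 and ADA), 1 lower (PNP) and 3 not called (AMPD2, ADAL and LACC1). Their median log2 fold change was -0.03. Calls were made for 60.9% of all genes tested, 30.5% higher and 30.4% lower. ADAL, an adenosine deaminase-like protein, had a log2 fold change of 0.05 (adjusted p 0.708), and LACC1, an enzyme with adenosine deaminase and phosphorylase activity, of -0.12 (adjusted p 0.475).

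Compared per kilobase of exon, the enzymes covered more than 2 orders of magnitude. In shKDM2B the order of mean CPM per kilobase was NT5E (406.4), ADK (40.5), PNP (22.1), AMPD2 (10.2), NT5C2 (8.91), AMPD3 (3.54), XDH (2.20), ADA (1.91) and ENTPD1 (1.02), with GDA last. XDH and ADA overlapped between libraries, and all other neighbours in this order were apart. In empty vector the order was NT5E (159.0), ADK (34.9), PNP (26.5), AMPD2 (11.1), NT5C2 (6.65), ENTPD1 (2.69), AMPD3 (1.30), ADA (1.15) and XDH (0.159), with GDA last, and only AMPD3 and ADA overlapped. The first 5 places were the same in both groups, and the changes of place lay among the low genes: ENTPD1 stood at place 9 in shKDM2B and 6 in empty vector, and XDH at place 7 in shKDM2B and 9 in empty vector. With the length of the longest transcript in place of all exons, ADA and XDH changed places in shKDM2B.

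**Figure D3:**
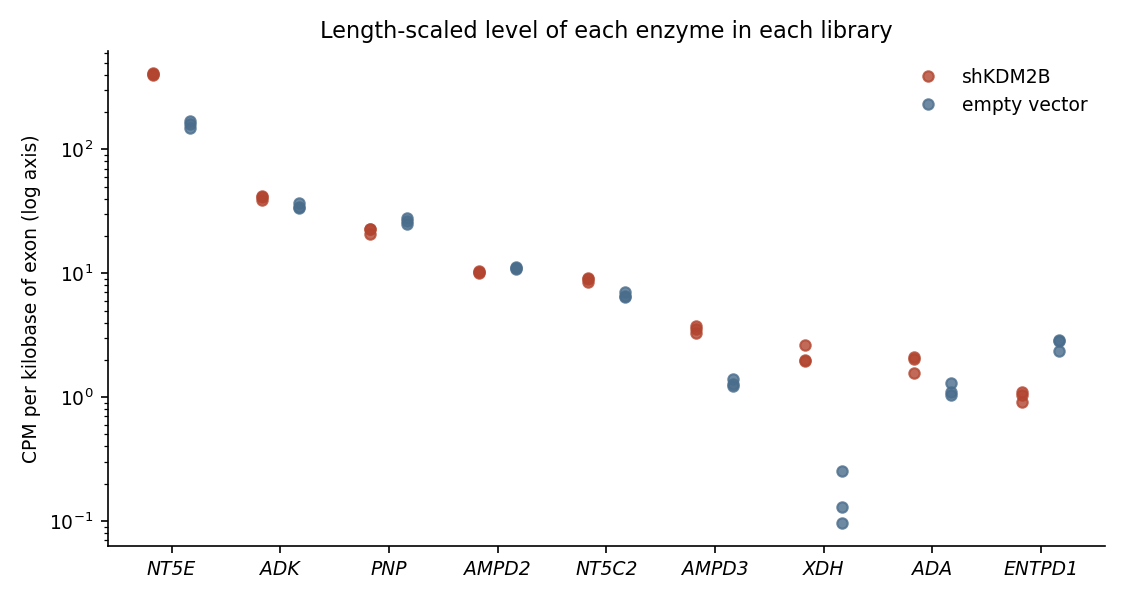
Level of each enzyme in each library, in CPM per kilobase of exon on a log axis, with shKDM2B left and empty vector right for each gene. Points are libraries. NT5E lies above 100 in all 6 libraries, and XDH is the lowest of the genes shown in empty vector and beside ADA in shKDM2B.

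Among all genes tested, the XDH level per kilobase stood at percentile 32.1 in shKDM2B and 2.2 in empty vector, so even with the hairpin it was a gene of below-median level. NT5E stood at percentile 99.8 in shKDM2B and 99.1 in empty vector, and ENTPD1 at 19.0 in shKDM2B and 36.2 in empty vector. The 10 genes together took 0.216% to 0.223% of all counts in shKDM2B libraries and 0.104% to 0.113% in empty vector libraries. NT5E alone made up 82.6% to 82.9% of the counts of the 10 genes in shKDM2B and 64.2% to 68.3% in empty vector.

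Genes that build or use the molybdenum cofactor of XDH moved in both directions. XDH needs the molybdenum cofactor, which MOCS1, MOCS2, MOCS3 and GPHN build and MOCOS sulfurates for XDH and the aldehyde oxidase AOX1. The list also holds AOX1 and the sulfite oxidase SUOX, which use the cofactor. Of its 7 genes other than XDH, all tested, 4 were lower, 2 higher and SUOX was not called (log2 fold change -0.12, adjusted p 0.564). Their median log2 fold change was -0.37. The number higher was 1 when empty vector replicate 1 or 2, or shKDM2B replicate 1 or 3, was left out, and 0 against a 1.2-fold change. It was also 1 with the DESeq2 test and with no low-count filter. Of all genes tested, 30.4% were lower and 30.5% higher. MOCOS had 287, 325 and 451 counts in shKDM2B libraries, against 866, 904 and 1065 counts in empty vector libraries (edgeR log2 fold change -1.52, SE 0.07, adjusted p 1.91e-10). AOX1, the closest relative of XDH, had 2253, 2305 and 3325 counts in shKDM2B libraries, against 4358, 4256 and 5691 counts in empty vector libraries (log2 fold change -0.96, SE 0.05, adjusted p 9.89e-10). GPHN had a log2 fold change of -0.67 (adjusted p 7.53e-06). Per kilobase of exon, XDH was 5.46% ± 1.14 of the XDH and AOX1 level in shKDM2B and 0.214% ± 0.115 in empty vector (SD, n = 3 each), so AOX1 remained the larger of the pair in all 6 libraries. MOCS1 (0.36) and MOCS3 (0.22) were higher and MOCS2 (-0.37) lower on the log2 scale, and the MOCS3 call was close to the threshold (adjusted p 0.0405).

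Salvage enzymes, which return bases and nucleosides to nucleotides, were mostly lower. Of 6 listed, 5 were tested, of which 4 were lower and only ADK higher. Their median log2 fold change was -0.51. Over all genes tested, 60.9% were called, 30.4% lower and 30.5% higher, which is also the background for the purine synthesis counts below. DCK, the deoxycytidine kinase, had a log2 fold change of -0.78 (SE 0.13, adjusted p 0.000571), APRT, which salvages adenine, of -0.63 (adjusted p 4.89e-06) and HPRT1, which salvages hypoxanthine and guanine, of -0.51 (adjusted p 4.26e-06). HPRT1 averaged 49.3 ± 2.45 CPM in shKDM2B and 70.5 ± 2.17 CPM in empty vector (SD, n = 3 each). HPRT1 acts on hypoxanthine, as XDH does, but XDH was chosen for its increase, so the signs of the 2 genes are not compared. MTAP, which frees adenine from methylthioadenosine and is often deleted in tumours, had at most 2 counts in any library. In purine synthesis, 10 of 12 tested genes were lower and 2 higher (1 without empty vector replicate 3 or shKDM2B replicate 1). Against a 1.2-fold change 6 were lower and 0 higher. Their median log2 fold change was -0.38, with decreases of IMPDH2 (-1.13), PAICS (-0.69) and PRPS2 (-0.68) foremost among genes of at least 5 CPM.

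Receptors and transporters of adenosine and urate were few at this depth. ADORA2B, the low-affinity adenosine receptor, was the only one of 4 receptors tested, with 130.1 ± 2.17 CPM in shKDM2B and 94.3 ± 5.32 CPM in empty vector (SD, n = 3 each; edgeR log2 fold change 0.46, adjusted p 5.15e-06). The other 3 had at most 4 counts in any library. Of 7 nucleoside transporters 3 were tested. SLC29A3 (ENT3), which works in lysosomes and mitochondria, had 277, 338 and 437 counts in shKDM2B libraries, against 81, 64 and 114 counts in empty vector libraries (log2 fold change 1.92, SE 0.11, adjusted p 3.85e-09). SLC29A1 and SLC29A2, the transporters of the plasma membrane, were lower with log2 fold changes of -0.52 (adjusted p 0.00015) and -1.11 (adjusted p 8.52e-07). Of 7 urate transporters 2 were tested: ABCG2, which exports urate, was higher (log2 fold change 0.71, adjusted p 2.81e-06) and ABCC4 was not called (0.07, adjusted p 0.247). The other 5, among them SLC2A9, had at most 3 counts in any library.

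**Figure D4:**
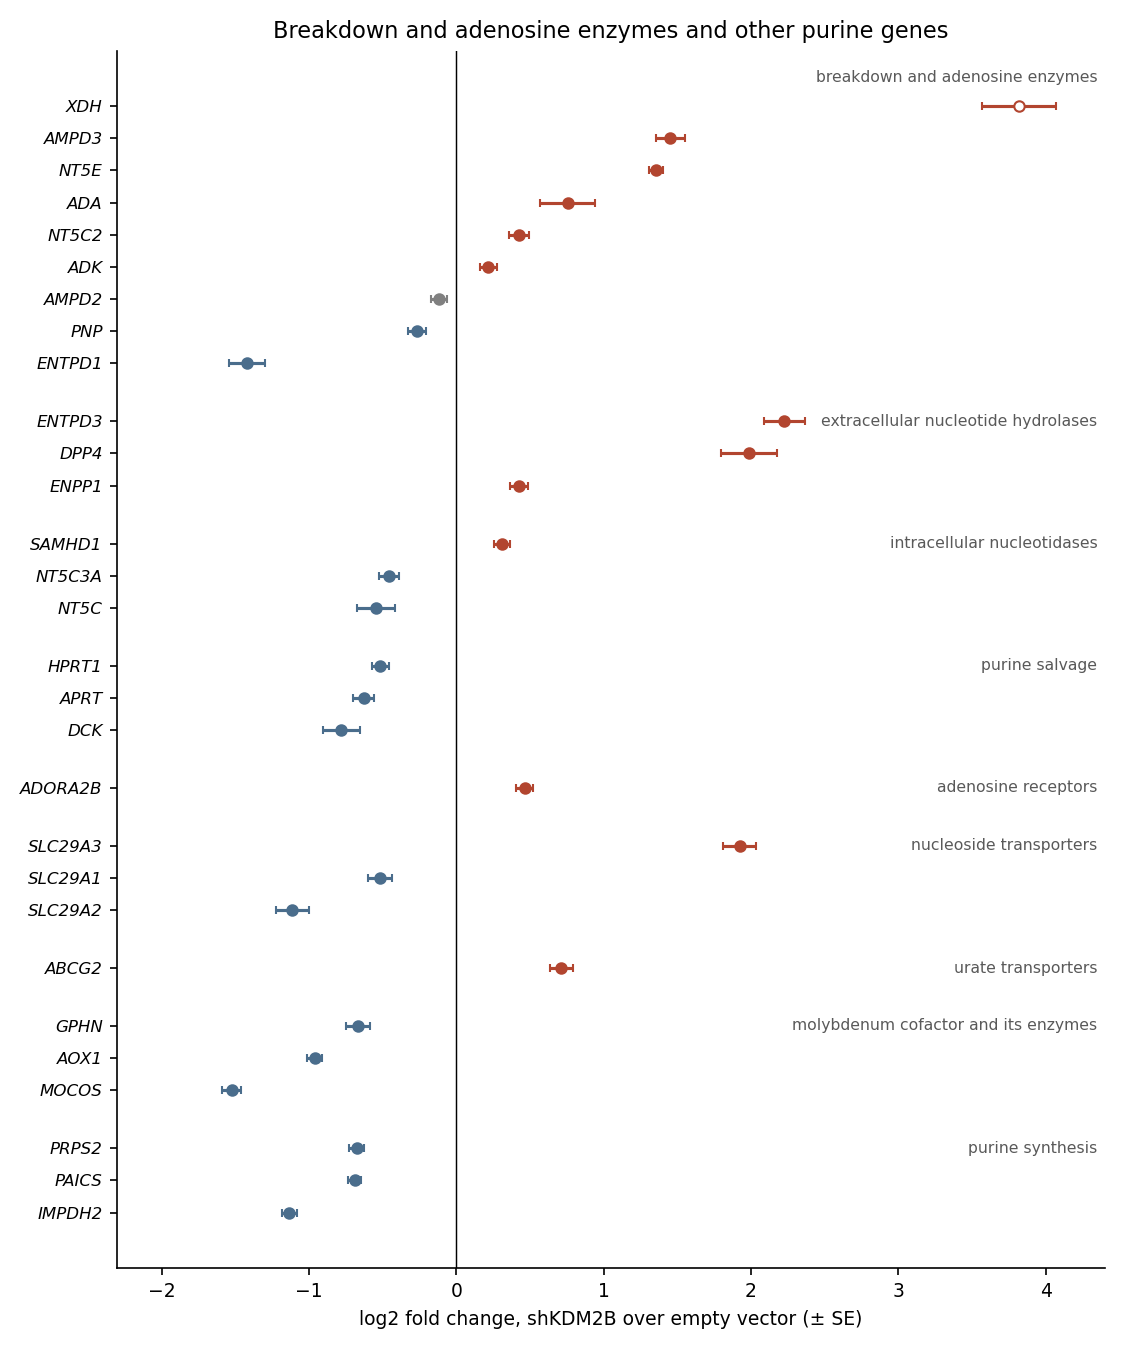
Log2 fold change of shKDM2B over empty vector (horizontal axis, ± SE) for the 9 measured enzymes at the top and for up to 3 called genes of each other purine list below. Red points were called higher, blue lower and grey not called, and the open point is XDH, which has no test. Nucleoside transporters stand on both sides of 0. The salvage and cofactor genes in the lower part lie left of 0, while ADK and XDH, of the same lists, lie right of 0 at the top. MOCS1 and MOCS3, called higher, and MOCS2 and DGUOK, called lower, are not shown.

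All 10 enzymes matched RefSeq promoters, with 23 starts in all. Over 35116 RefSeq windows, the 250 bases before a start held a median of 11 CpG, with quartiles of 3 and 23. The XDH window printed above, with 3 CpG and an observed over expected ratio of 0.223, holds more CpG than 22.9% of windows. ADA, with 41 and a ratio of 1.09, holds more than 98.3%, and NT5E, with 28 and a ratio of 0.808, more than 84.1%. PNP and GDA, with 12 CpG each, stand near the middle.

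Genes with several starts varied within themselves. ENTPD1 has 5 starts with 0 to 21 CpG, AMPD3 has 4 with 1 to 28, and AMPD2 has 4 with 4 to 16. ADK has 13 and 32 CpG at its 2 starts, and NT5C2 has 34, 0 and 3 at its 3 starts. Counts per gene do not show which of these starts was used.

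**Figure D5:**
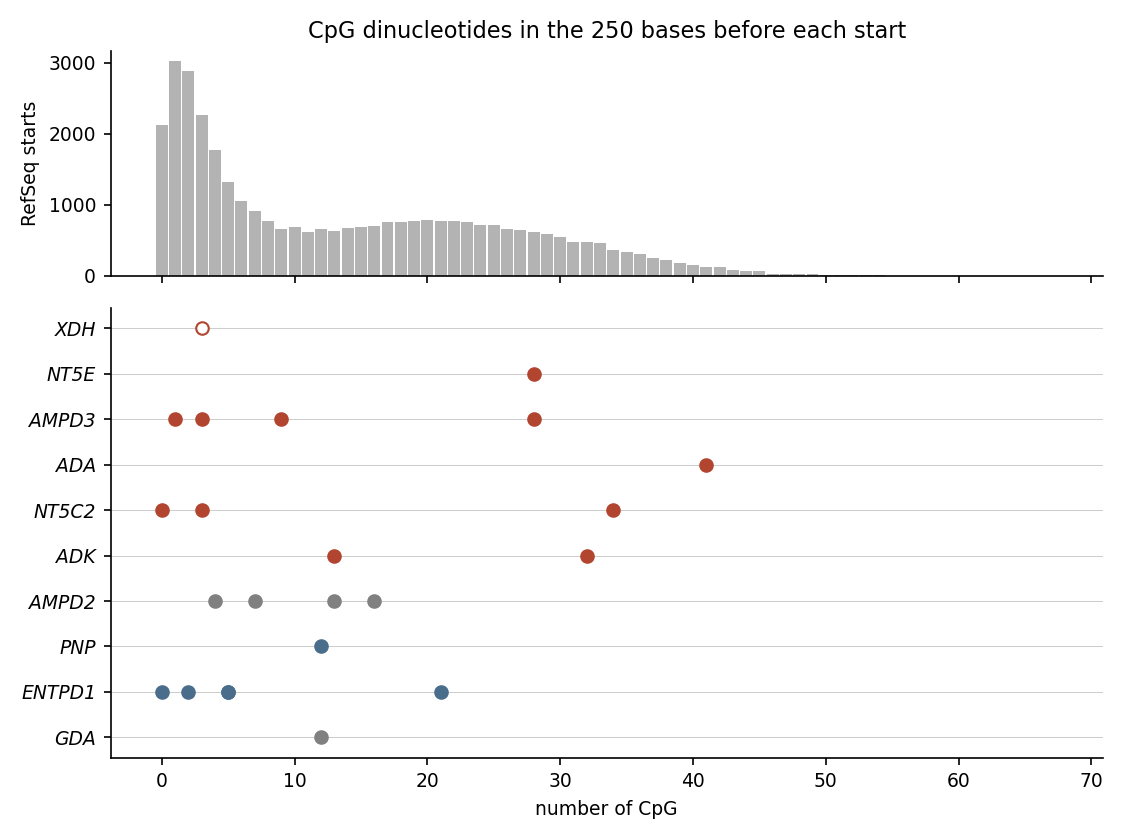
Upper panel, number of RefSeq starts (vertical axis) by the number of CpG in the 250 bases before the start (horizontal axis). Lower panel, the 23 starts of the 10 enzymes on the same axis, 1 point per start (2 ENTPD1 starts with 5 CpG coincide), red for genes called higher, blue lower, grey not called or not tested and open for XDH. XDH lies at 3 CpG and ADA at 41.

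Short words bound by MYC and ATF factors were searched on both strands of the same 250 bases. CACGTG, the E-box, was in 1 of the 23 windows, the first start of AMPD2, and in 6.35% of all windows. TGACGTCA, the CRE word, was in 0 of the 23 and in 1.65% of all windows. TGATGNAA, the C/EBP-ATF word, was in 1 of the 23, the third start of ENTPD1, and in 3.14% of all windows. The 3 words do not overlap each other in these windows, and the XDH window holds none of them.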

How the data were processed

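RNA-seq of 6 MDA-MB-231 libraries was analysed. The deposited table holds the authors' raw counts of reads per gene, with a column for each library. Per the submitters' processing notes, the tools were STAR, featureCounts, Trim Galore, edgeR, limma and DESeq2, with build GRCh38. No versions, roles or strand setting were stated. Per the labels, ribosomal RNA was removed and a KAPA HyperPrep kit used. Columns named sh79 were taken as shKDM2B, the only hairpin group. Of 61533 rows, 61415 had a symbol and 58356 an entry in GENCODE release 29, which gave exon lengths and coordinates.

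Low counts were removed by filterByExpr (count of 10, total of 15), TMM scaled the libraries, and groups were compared with the robust two-sided quasi-likelihood test of edgeR (version 4.0.16 in R 4.3.3, prior count 0.125), with Benjamini-Hochberg adjustment over 14071 genes. SE was the fold change over the root of F. Library totals of 10190149 to 15737951 counts limit precision for genes with few counts. All replicate pairs differed beyond sampling noise. DESeq2 (1.42.0), limma-voom (3.58.1), other scalings and filters, a 1.2-fold null, other prior counts, a replicate block and leaving out each library were alternatives. Scripts were tested on simulated counts. Members, lists and tests were chosen with earlier results of these data known. Genes named beside the members were called, had a mean of at least 5 CPM and were up to 3 of the largest changes of their list. KDM2B, MYC, ATF4 and the 5 genes most like XDH were also named. The remaining members of short lists, overlapping genes and KDR were named after their values were seen.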

Additional observations from a re-analysis of the deposited data

How the results depend on the processing

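Log2 fold changes of the 9 measured enzymes kept their sign under every alternative run. Against a 1.2-fold change 5458 genes in all were called in place of 8571, and 1 of the enzymes other than XDH was lower in place of 2: PNP (-0.27, adjusted p 0.399) and ADK (0.22, adjusted p 0.741) were no longer called, nor was SAMHD1 (0.31, adjusted p 0.146), and purine synthesis had 6 genes lower in place of 10 and 0 higher in place of 2. AMPD2 was called lower with upper-quartile scaling (-0.13, adjusted p 0.0496). When each library was left out it ran from -0.14 to -0.10, and it was called only without empty vector replicate 2 (-0.13, adjusted p 0.0160). Its adjusted p over all alternatives ran from 0.0160 to 1.00. Over the other settings, 7566 (without shKDM2B replicate 3) to 9128 (without empty vector replicate 2) genes were called. Deviations of same-numbered libraries correlated at 0.118, -0.026 and 0.075 across genes, and only the first exceeded the threshold of 0.1. Differently numbered libraries ran from -0.135 to 0.084. The numbers were not taken as pairs. With a replicate block 8479 genes were called, and no call among the enzymes changed. The log2 fold change of XDH ran from 3.50 to 4.28, and was 3.61 with a prior count of 2, a setting added after the data were seen. Of the counts of called genes per list, 16 moved beyond a set ratio to the main count, or to or from 0, and 254 did not. Counts within that ratio could still differ. For example, intracellular nucleotidases had 3 genes lower without shKDM2B replicate 2, in place of 4. The values of levels and CpG content were less stable, with 18 moved and 25 the same. With the longest transcript as length, levels per kilobase were higher for the 9 measured enzymes. This follows from the lengths alone, since no transcript is longer than all exons of its gene together. Depth limits GDA and the empty vector level of XDH.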
